A study of Mus musculus with 24 samples.

Results

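The genes described here are 10 members of the cytotoxic granule programme, namely the granzymes Gzma, Gzmb, Gzmc and Gzmk, the pore former Prf1, the granule proteins Srgn, Nkg7 and Ctsw, and the serpins Serpinb9 and Serpinb6b. They were picked by gene symbol, with measured values of these libraries already known, and each symbol was matched to 1 of the 55414 rows of the deposited count table through the mouse annotation. Of the 10 members, 9 had enough counts to be tested together with 10566 genes in all, and Serpinb9 did not. Because the choice followed the data, a count of members that changed describes these genes and says nothing about granule genes as a class.

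Cytotoxic lymphocytes store granzymes, a family of serine proteases, in secretory granules, packed on the proteoglycan serglycin. On contact with a target cell the granules fuse with the membrane, perforin opens pores in the target, and granzymes enter and cleave proteins that drive cell death. The programme is best known in CD8+ T cells and natural killer (NK) cells, and CD4+ T cells can express parts of it after stimulation through the T cell receptor. Cells that carry granzymes make serpins that trap leaked protease in the cytosol.

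The libraries were made from splenic conventional CD4+ T cells (Tconv, labelled TE), which were enriched by negative magnetic selection for CD4+ cells followed by removal of CD25+ cells. The mice shared the C57BL/6J nuclear genome and carried either B6 mitochondrial DNA (mtDNA B6, labelled WT) or the mitochondrial DNA of the NZB strain (mtDNA NZB, a conplastic mouse whose nuclear genome is that of B6). Cells of each haplotype were left resting or were activated for 72 h with CD28/CD3 beads at 1 bead per cell plus interleukin-2, which gave 4 groups of 6 libraries. The methods describe most of the experiments as done on young adult males without naming the mice behind these libraries, and nothing states that the 6 libraries of a group came from 6 separate mice, so p-values measure the spread between these libraries. Legends to the study's expression plots give a smaller n per model than the libraries of a group here, so some libraries may share a mouse. The number that opens a library's description differs within a group, and several numbers recur between resting and activated libraries of a haplotype. The methods describe isolated T cells as split into these states. Nothing states that a number marks a mouse, and the main fit used no pairing. The comparisons ask what activation did to the granule genes in each haplotype, whether the haplotypes differed at rest or after activation, and whether the response differed between haplotypes.

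On GRCm39, Gzmb (chr14:56496295-56499717) and Gzmc (chr14:56468857-56479211) lie on the minus strand of chromosome 14, and Gzma (chr13:113230355-113237524) and Gzmk (chr13:113308142-113362442) on the minus strand of chromosome 13. Serpinb6b (chr13:33073279-33163050) and Serpinb9 (chr13:33187233-33201940) lie close together on the plus strand of chromosome 13. Prf1 (chr10:61133546-61140461, plus strand) and Srgn (chr10:62329029-62363238, minus strand) are on chromosome 10, Nkg7 (chr7:43086497-43087678, plus strand) is on chromosome 7, and Ctsw (chr19:5515071-5518535, minus strand) is on chromosome 19. All are protein-coding genes, and a count is the sum over the 3′ regions of a gene's transcripts.

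Short stretches of promoter are shown for the 4 granzymes, Prf1, Srgn and Nkg7, the members that held a match to at least 1 of 5 motifs before the start, whatever their change on activation. Promoter windows from 250 bases before to 50 bases after the transcription start came from RefSeq (GRCm38.p6), were placed on GRCm39 by exact match, and were present for 9 of the 10 members. Each window was searched on both strands for an AP-1 element (TGANTCA), a cyclic AMP response element (CRE, TGACGTCA), a RUNX element (TGTGGT), a T-box element (TCACAC) and a STAT element (TTCNNNGAA), which are bound by families of transcription factors active in T cells. Over all 32851 mouse promoter windows of the same length, 7.81% held the AP-1 letters, 1.79% the CRE letters, 16.8% the RUNX letters, 14.5% the T-box letters and 8.30% the STAT letters. Each line gives 30 bases, written 5′ to 3′ on the strand of the gene, with the matched letters in capitals; ACCACA and GTGTGA are the RUNX and T-box letters read on the other strand.
Gzmb, AP-1 at -58 from the start, chr14:56499831-56499860, minus strand: tggtggttctcTGAGTCAttcgctgtgggt
Gzmb, RUNX at -93, chr14:56499867-56499896, minus strand: accctatgccctTGTGGTcttgccctgggc
Gzmc, CRE at -57, chr14:56472153-56472182, minus strand: cttaagtaatgTGACGTCAatcagaagcag
Gzmc, RUNX at -108, chr14:56472205-56472234, minus strand: tcaggaggtcagTGTGGTaacagtgtcatt
Gzma, RUNX at -50, chr13:113237548-113237577, minus strand: gagaagaacaaaACCACAtcctttgcactc
Gzmk, T-box at -49, chr13:113317531-113317560, minus strand: aacgtctgggacGTGTGAggtgagaaacct
Prf1, RUNX at -130, chr10:61133473-61133502, plus strand: tgggaacctgtgACCACActctgggggcag
Srgn, RUNX at -202, chr10:62343721-62343750, minus strand: gaaaaaataataACCACAcagcaaacgcct
Nkg7, RUNX at -83, chr7:43086467-43086496, plus strand: gggcccacccctACCACAtaggaggagagg

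The RUNX letters occurred in the windows of 7 of the 9 members, which were Gzma, Gzmb, Gzmc, Prf1, Srgn, Nkg7 and Serpinb9. In Serpinb9 the match lay 11 bases after the start. Srgn had 2 windows where the other members with a window had 1, and its match lay in only 1 of them. Gzmb was the member with an AP-1 match and Gzmc the member with a CRE match. A second RUNX match lay at -34 in the Gzmb window and at -174 in the Gzmc window. The Gzmb window also held T-box letters at -15, the Nkg7 window held them at -12, and the Gzmk window held a second copy at -74. STAT letters lay at 38 in the Gzmb window and at -220 in the Nkg7 window. Positions count from the RefSeq start, which need not be the end of the gene model given above and for several members, Gzmc, Gzmk and Srgn among them, lies well inside it. None of the 5 motifs was found in the window of Serpinb6b. A match of letters is a description of the sequence and is no measure of binding.

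Library totals ranged from 51409 to 6449395 UMI counts (distinct molecules, counted by a molecular barcode), and the smallest belonged to resting mtDNA NZB replicate 2. The next smallest was activated mtDNA NZB replicate 1 with 641467, and the other 22 libraries held at least 2157475. The summed level of 6 CD4 T cell markers was 3091 to 4406 CPM (counts scaled to a common library size) in resting mtDNA B6, 3406 to 4004 in activated mtDNA B6, 2440 to 4567 in resting mtDNA NZB and 3567 to 5084 in activated mtDNA NZB libraries, and none of the 6 was called on activation. Il2ra, which encodes the CD25 receptor chain that T cells raise on activation, rose by 4.68 ± 0.38 (log2 difference ± SE) in mtDNA B6 and by 5.00 ± 0.41 in mtDNA NZB cells. Libraries fell into 3 sets of 8 by the ratio of the larger to the UMI-corrected count table, and activation results of the members that changed with a term for the set are named beside the gene. Resting mtDNA B6 held no library of the set that contained 5 of the 6 activated mtDNA B6 libraries, so set and state partly coincide. Among mtDNA NZB libraries, resting replicates 2 and 6 and activated replicate 6 were named by an earlier analysis of these data as standing apart from their groups, and values over the 21 libraries without them are given wherever they changed the call of a member, list gene or marker, or the direction of a member.

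On activation, Gzma, Gzmb, Gzmc and Serpinb6b rose in both haplotypes. In bulk RNA, more cells of a type and more RNA per cell cannot be told apart. A gene was called where the adjusted p was at most 0.05 and the log2 difference at least 1 in size. For the difference of the responses the adjusted p alone decided, with no fold cut-off. In mtDNA B6 cells 4 of the 9 tested members were called higher and 0 lower, where 7.06% of the 10566 genes were called higher. In mtDNA NZB cells 5 were called higher and 0 lower, with Gzmk as the fifth, where 9.46% of all genes were called higher. Over the 21 libraries 4 were called higher in mtDNA NZB cells, where 10.5% of all genes were. The median log2 difference of the 9 members was 1.08 in mtDNA B6 and 1.29 in mtDNA NZB cells, and over all genes tested it was -0.03 and -0.06. Activated mtDNA B6 replicate 1 was the highest library of its group for all 10 members, and without it the mtDNA B6 differences of Gzmb, Gzmc and Serpinb6b were 4.03 ± 0.50, 3.09 ± 0.48 and 1.32 ± 0.32 and were still called.

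**Figure D1:**
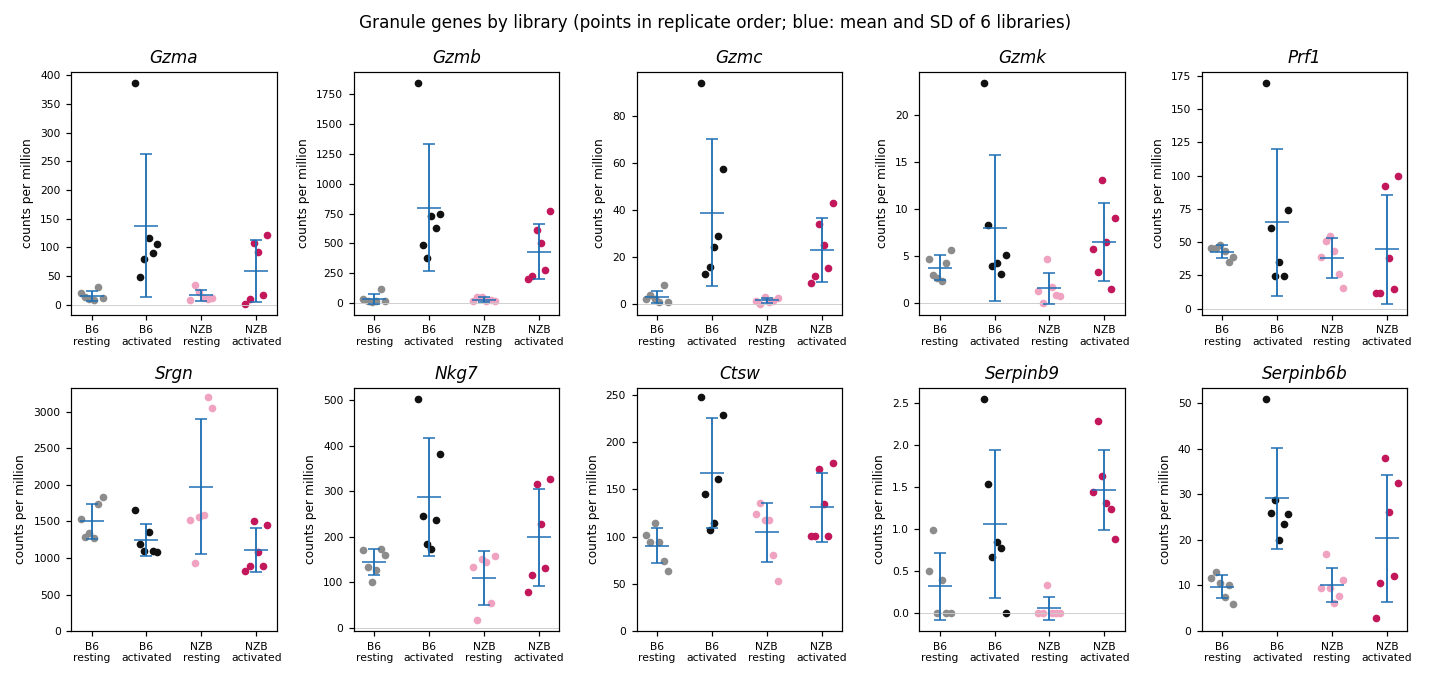
CPM of the 10 genes in each of 24 libraries, 1 panel per gene with its own linear axis; points are libraries in replicate order, and the blue marks are the mean and SD of 6 libraries. The first black point of each panel is activated mtDNA B6 replicate 1, at 1844 CPM of Gzmb.

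Gzmb encodes granzyme B, the protease that cleaves after aspartate and starts caspase-dependent death of the target cell. In resting mtDNA B6 libraries Gzmb was lowest at 12.5 CPM, with a median of 17.6 and a highest value of 117, and in activated libraries the lowest, median and highest values were 374, 676 and 1844. The mtDNA NZB libraries held 15.4, 21.5 and 51.7 CPM of Gzmb at rest and 206, 387 and 769 after activation. Every activated library lay above every resting library of its haplotype. The log2 difference was 4.47 ± 0.54 in mtDNA B6 cells (22.1-fold, adjusted p = 3.32e-07) and 4.06 ± 0.58 in mtDNA NZB cells (16.6-fold, adjusted p = 2.23e-06). Without resting mtDNA B6 replicate 5, the library at 117 CPM, the mtDNA B6 difference was 5.42 ± 0.48, or 42.7-fold.

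Gzmc encodes granzyme C, a mouse granzyme that lies next to Gzmb. It ranged from 0.75 to 7.98 CPM at rest and from 12.9 to 94.0 CPM after activation in mtDNA B6 libraries, with medians of 2.01 and 26.4. Among mtDNA NZB libraries it ranged from 0 to 3.02 CPM at rest and from 8.63 to 43.0 CPM after activation, with medians of 1.19 and 20.0. The resting and activated libraries did not overlap in either haplotype. The log2 difference was 3.58 ± 0.52 in mtDNA B6 (adjusted p = 4.57e-06) and 3.80 ± 0.64 in mtDNA NZB cells (adjusted p = 2.19e-05). Without resting mtDNA B6 replicate 5 the mtDNA B6 value was 4.33 ± 0.57. The last 1000 transcribed bases of Gzmc shared 3.59% of their 50-base words with other genes (Gzmd, Gzme, Gzmg and the predicted gene Gm63572), so a small part of its reads cannot be assigned with certainty, whereas Gzmb shared none.

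Gzma encodes granzyme A, a tryptase that cleaves after basic residues. The lowest, median and highest levels in mtDNA B6 libraries were 7.83, 12.1 and 30.8 CPM at rest and 48.0, 98.1 and 387 CPM after activation, with no overlap. The same values in mtDNA NZB libraries were 8.35, 11.3 and 33.9 CPM at rest and 1.44, 54.2 and 122 CPM after activation. Activated mtDNA NZB replicates 1, 2 and 5 held 1.44, 10.4 and 17.3 CPM, inside or below the resting range, whereas replicates 3, 4 and 6 held 107, 91.1 and 122 CPM. Gzma rose by 3.11 ± 0.58 on the log2 scale in mtDNA B6 (8.66-fold, adjusted p = 0.000105) and by 2.25 ± 0.64 in mtDNA NZB cells (4.76-fold, adjusted p = 0.00449). Without activated mtDNA B6 replicate 1 the rise in mtDNA B6 cells was 2.47 ± 0.53, or 5.53-fold.

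Gzmk encodes granzyme K, a second tryptase, and its gene lies on chromosome 13 in the same region as Gzma. It was low throughout, at 2.35 to 5.64 CPM in resting and 3.07 to 23.4 CPM in activated mtDNA B6 libraries, with medians of 3.62 and 4.69. In mtDNA NZB libraries it was 0 to 4.70 CPM at rest and 1.55 to 13.1 CPM after activation, with medians of 1.13 and 6.14, and the states overlapped in both haplotypes. The rise in mtDNA NZB cells was 1.77 ± 0.58 (adjusted p = 0.0126), and over 21 libraries it was 1.44 ± 0.68 with an adjusted p of 0.077. In mtDNA B6 cells the log2 difference was 1.08 ± 0.48 (adjusted p = 0.0676), and without activated mtDNA B6 replicate 1, the library at 23.4 CPM, it was 0.36 ± 0.42 (adjusted p = 0.517). Leaving out activated mtDNA B6 replicate 3, 4 or 5 instead made it a call, with 0.0381 as the smallest adjusted p. Without resting mtDNA NZB replicate 3 the mtDNA NZB value was 2.42 ± 0.65. The difference between the haplotypes' responses was 0.70 ± 0.76 and was not called (adjusted p = 0.72).

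**Figure D2:**
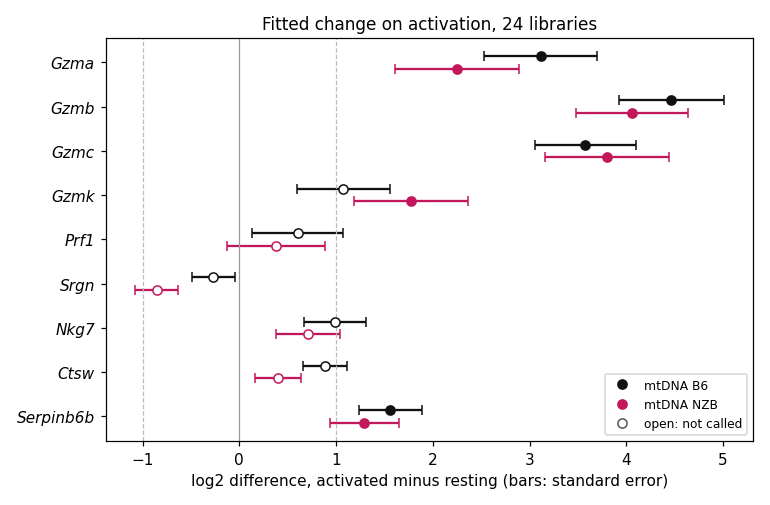
Log2 difference between activated and resting libraries for the 9 tested genes, with its standard error, from 1 fit over 24 libraries; black is mtDNA B6, dark pink is mtDNA NZB, open circles were not called, and dashed lines mark a difference of 1 in size. The granzymes Gzma, Gzmb, Gzmc and Gzmk and the serpin Serpinb6b lie to the right of the dashed line in both haplotypes. Gzmk was not called in mtDNA B6, and Srgn lies left of 0.

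Prf1 encodes perforin, the pore former without which granzymes cannot enter a target cell efficiently. It was present at rest, at 34.9 to 47.9 CPM (median 44.4) in mtDNA B6 and 15.7 to 54.7 CPM (median 41.1) in mtDNA NZB libraries. After activation the spread widened to 24.1 to 170 CPM (median 48.1) in mtDNA B6 and 11.5 to 100 CPM (median 26.4) in mtDNA NZB libraries, with values both above and below the resting range. The log2 difference was 0.60 ± 0.47 in mtDNA B6 (adjusted p = 0.304) and 0.38 ± 0.51 in mtDNA NZB cells (adjusted p = 0.545). Its sign was not stable: over 21 libraries the mtDNA NZB value was -0.21 ± 0.54, and with a term for the library set the mtDNA B6 value was -0.21 ± 0.63. Without activated mtDNA B6 replicate 1 the mtDNA B6 value was 0.03 ± 0.44.

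Srgn encodes serglycin, the proteoglycan core that holds granzymes and perforin in the granule and is also made by myeloid cells and platelets. It ranged from 1271 to 1832 CPM at rest and 1088 to 1651 CPM after activation in mtDNA B6 libraries, with medians of 1437 and 1145. The mtDNA NZB libraries ranged from 932 to 3205 CPM at rest and 821 to 1502 CPM after activation, with medians of 1577 and 987. The 2 highest of all 24 libraries were resting mtDNA NZB replicates 5 and 6, at 3205 and 3053 CPM, and in them the macrophage gene Lyz2 was at 465 and 2498 CPM. Srgn fell by 0.85 ± 0.22 on the log2 scale in mtDNA NZB cells (adjusted p = 0.00224), short of the fold threshold, and the value in mtDNA B6 cells was -0.27 ± 0.22 (adjusted p = 0.33). The difference between responses was -0.59 ± 0.31, and its adjusted p was 0.392. Srgn overlaps the lncRNA Gm56955 on the opposite strand over 226 bases.

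Nkg7 encodes a small membrane protein of lytic granules that promotes their release, and Ctsw encodes cathepsin W, a cysteine protease found mainly in cytotoxic lymphocytes. Nkg7 ranged from 102 to 172 CPM at rest and from 173 to 503 CPM after activation in mtDNA B6 libraries, without overlap and with medians of 147 and 242. In mtDNA NZB libraries it was 16.9 to 158 CPM at rest, where the lowest value rested on 1 count in the smallest library, and 77.6 to 327 CPM after activation, with medians of 139 and 179. The log2 difference of Nkg7 was 0.99 ± 0.32 in mtDNA B6 (adjusted p = 0.0131), just under the fold threshold, and 0.71 ± 0.33 in mtDNA NZB cells (adjusted p = 0.0721). Without activated mtDNA B6 replicate 1 the adjusted p in mtDNA B6 cells was 0.0535, and with a term for the library set it was 0.185. Leaving out resting replicate 1, 5 or 6 or activated replicate 2, 3, 4 or 5 of mtDNA B6, or resting mtDNA NZB replicate 2, took Nkg7 past the threshold in mtDNA B6 cells, up to 1.10 ± 0.33, and so did 3 other settings, which were scaling by library totals alone (1.11), no filter on low counts (1.02) and the second count table (1.04).

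Ctsw had medians of 94.7 CPM at rest and 153 CPM after activation in mtDNA B6 libraries, and of 118 and 118 CPM in mtDNA NZB libraries. Its range in mtDNA B6 libraries was 63.2 to 115 CPM at rest and 107 to 248 CPM after activation. In mtDNA NZB libraries the range was 53.4 to 136 CPM at rest and 101 to 179 CPM after activation, so that the states overlapped in both haplotypes. The log2 difference was 0.89 ± 0.22 in mtDNA B6 (adjusted p = 0.0021), under the fold threshold and 1.01 ± 0.24 without resting mtDNA B6 replicate 3, and 0.40 ± 0.23 in mtDNA NZB cells (adjusted p = 0.154). Ctsw was also called in mtDNA B6 cells with the number that opens a library's description (the description number) as a replicate block. The difference of responses was -0.49 ± 0.32 (adjusted p = 0.503).

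Serpinb6b and Serpinb9 encode intracellular serpins, and Serpinb9 is the mouse counterpart of the human inhibitor of granzyme B. Serpinb6b ranged from 6.02 to 12.9 CPM at rest and 19.9 to 50.9 CPM after activation in mtDNA B6 libraries, without overlap and with medians of 10.3 and 25.9. In mtDNA NZB libraries it ranged from 6.16 to 16.9 CPM at rest and 2.88 to 38.0 CPM after activation, with medians of 9.37 and 19.1, and activated replicates 1, 2 and 5 lay within or below the resting range. It rose by 1.56 ± 0.33 in mtDNA B6 (2.95-fold, adjusted p = 0.000337) and by 1.29 ± 0.36 in mtDNA NZB cells (2.45-fold, adjusted p = 0.00376).

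Serpinb9 was near the limit of detection. Over 6 libraries each, it had 6 counts at rest and 24 after activation in mtDNA B6, and 1 count at rest and 26 after activation in mtDNA NZB cells. Per library it held 0 to 3 counts at rest and 0 to 10 after activation. The pooled ratio of activated to resting levels was 4.24 (exact 95% interval 1.69 to 12.7) in mtDNA B6 and 21.0 (3.46 to 863) in mtDNA NZB libraries, and these intervals cover counting error only.

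By the separation of all 6 activated from all 6 resting libraries, 5 of 10 members were higher after activation in mtDNA B6 cells (Gzma, Gzmb, Gzmc, Nkg7 and Serpinb6b), where 15.4% of the tested genes separated in that way. In mtDNA NZB cells Gzmb, Gzmc and the barely detected Serpinb9 separated, 3 of 10, where 11.9% of tested genes did. No member separated in the lower direction, where 16.4% of tested genes did in mtDNA B6 and 6.95% in mtDNA NZB cells.

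The 5′ ends of Gzmb and Gzmc lie 20.5 kb apart at the end of a granzyme and mast cell protease cluster on chromosome 14 of GRCm39. The other granzymes of the cluster were rare. Gzmd went from 5 counts in 1 resting library to 58 counts in 5 activated libraries of mtDNA B6, and Gzme from 5 to 81 counts. Of the 58 and 81 counts most came from activated mtDNA B6 replicate 1, in which Gzmd and Gzme were at 11.7 and 14.5 CPM, against at most 1.79 and 2.82 CPM in the other 5 libraries. In mtDNA NZB libraries Gzmd went from 1 to 33 counts and Gzme from 0 to 37 counts, the latter at least 9.98-fold higher against a floor of 3 counts over the resting group. Activated mtDNA NZB replicate 6 held 26 of the 33 and 25 of the 37 counts, and without it Gzme was at least 4.91-fold higher. Gzmf and Gzmg had at most 10 counts in any group, and Gzmn had 0 counts in all 24 libraries. Shared 50-base words made up 23.1% of Gzmd and 25.1% of Gzme, so their separate counts are uncertain. Ctsg, the neutrophil protease cathepsin G of the same cluster, was higher at rest, with a mean of 149 CPM at rest and 20.5 CPM after activation in mtDNA B6 and 81.2 and 6.84 CPM in mtDNA NZB libraries.

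**Figure D3:**
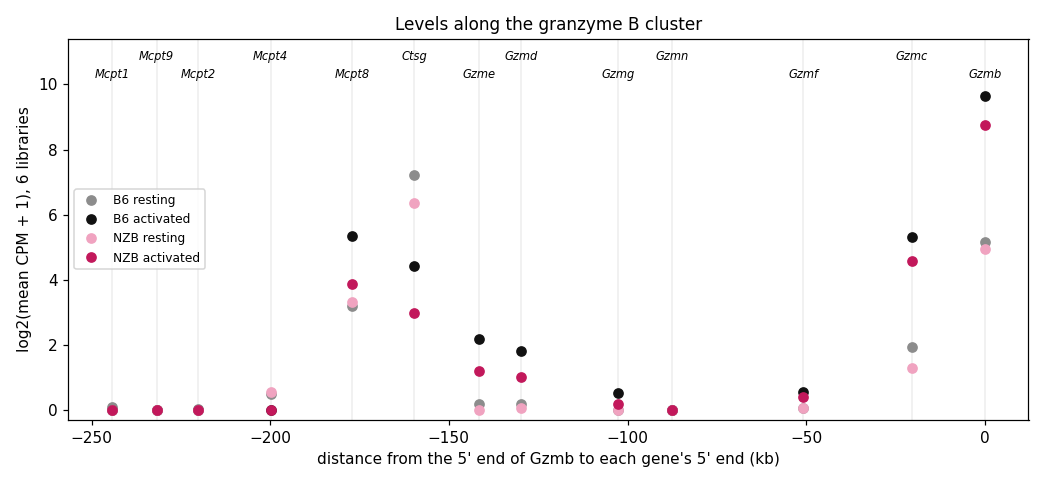
Mean level of each gene of the cluster in the 4 groups, as log2(mean CPM + 1) over 6 libraries, against the distance in kb from the 5′ end of Gzmb to the 5′ end of the gene. Gzmb and Gzmc, whose 5′ ends are 20.5 kb apart, are higher in both activated groups, Ctsg is higher in both resting groups, and Gzmn is at 0.

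No member was called between the haplotypes at rest. The log2 differences, mtDNA NZB minus mtDNA B6, ran from -0.97 ± 0.60 for Gzmk to 0.41 ± 0.22 for Srgn, and the smallest adjusted p was 0.287. Of all tested genes 1.01% were called in this comparison. By edgeR and by DESeq2 alike, 0 of 9 members had an unadjusted p under 0.05, where 20.8% of all genes did by edgeR. No member separated the 6 libraries of each haplotype, where 0.398% of genes did with mtDNA NZB higher and 0.738% with it lower. Gzma and Gzmb were highest among resting mtDNA B6 libraries in replicate 5 (30.8 and 117 CPM), and without that library their differences changed from -0.31 to 0.05 ± 0.70 and from -0.47 to 0.48 ± 0.45. The difference of Gzmc changed from -0.91 to -0.16 ± 0.78 without it, and that of Gzmk to -1.61 ± 0.67 (adjusted p = 0.148) without resting mtDNA NZB replicate 3.

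After activation the fitted values of all 9 tested members were lower in mtDNA NZB than in mtDNA B6 cells, and none was called. The differences ran from -1.17 ± 0.53 for Gzma to -0.17 ± 0.22 for Srgn, with -0.88 ± 0.47 for Gzmb, -0.68 ± 0.44 for Gzmc and -0.51 ± 0.32 for Nkg7. Their median was -0.45, beside 0.01 over all genes. Every adjusted p was 1, and 0% of all genes were called. Gzma alone had an unadjusted p under 0.05 by edgeR (0.0371), none had by DESeq2, and 3.09% of all genes had by edgeR. No member separated the haplotypes here either, where 0.0284% of genes did in each direction. The members were measured in the same libraries and are not independent of one another: without activated mtDNA B6 replicate 1, the highest library of its group for each of the 10 members, the differences for Gzma, Gzmk and Prf1 were -0.52 ± 0.49, 0.45 ± 0.41 and 0.12 ± 0.44. Gzmb in that library was 1844 CPM, and in the other 5 it was 374 to 745 CPM. Over 21 libraries 4 of 9 members had an unadjusted p under 0.05 (Gzma, Gzmb, Nkg7 and Ctsw), where 9.87% of all genes had, and none was called. Those libraries lack activated mtDNA NZB replicate 6, the highest of its group for these 4 members, and keep activated mtDNA B6 replicate 1. Without activated mtDNA NZB replicate 6 alone, Gzma was at -1.52 ± 0.56 and Gzmb at -1.13 ± 0.49.

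The difference of the responses, mtDNA NZB minus mtDNA B6, was called for 0 of 9 members and for 0% of all genes by edgeR. By edgeR and by DESeq2, 0 members had an unadjusted p under 0.05, where 14.3% of all genes had by edgeR. Fitted values ran from -0.86 ± 0.85 for Gzma to 0.70 ± 0.76 for Gzmk, and without activated mtDNA B6 replicate 1 they were -0.22 ± 0.77 and 1.42 ± 0.64 (adjusted p = 0.383). Without resting mtDNA B6 replicate 5 the value of Gzmb changed from -0.41 to -1.36 ± 0.58 (adjusted p = 0.357) and that of Gzmc from 0.23 to -0.53 ± 0.91. The standard errors of the 9 members were 0.31 to 0.85. For Gzma, Gzmb, Gzmc, Gzmk and Prf1 they were 0.69 to 0.85, so that a difference between the haplotypes' responses of 1 on the log2 scale could not be told from 0 in these genes. Over 21 libraries 2 of 9 members (Srgn and Ctsw) had an unadjusted p under 0.05 by edgeR, where 18.7% of all genes had. There 0 members and 1.04% of all genes were called.

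Over 24 libraries, markers of CD8 T cells and the platelet marker Pf4 rose on activation in both haplotypes. Most of the tested NK cell markers and all macrophage and granulocyte markers fell, and B cell markers were not called. The CD8 T cell markers Cd8a and Cd8b1, which a CD4+ selection should remove, summed to 52.3 to 111 CPM at rest and 161 to 405 CPM after activation in mtDNA B6 libraries. The same sum in mtDNA NZB libraries was 16.9 to 142 CPM at rest and 82.0 to 534 CPM after activation. Both were called higher in both haplotypes, Cd8a by 2.35 ± 0.42 and 1.90 ± 0.44 and Cd8b1 by 1.79 ± 0.41 and 1.44 ± 0.43 in mtDNA B6 and mtDNA NZB cells. Cd8b1 was not called in mtDNA NZB cells over 21 libraries (0.78 ± 0.40) or without activated mtDNA NZB replicate 6 (0.99 ± 0.39), nor in mtDNA B6 cells with a term for the library set (1.13 ± 0.49).

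Within the activated mtDNA NZB group the libraries with less CD8 marker RNA also had less granule RNA. Replicates 1, 2 and 5, with summed Cd8a and Cd8b1 of 82.0, 85.5 and 124 CPM, held 206, 226 and 276 CPM of Gzmb and 11.5, 11.7 and 14.9 CPM of Prf1. Replicates 4, 3 and 6, at 205, 356 and 534 CPM of the markers, held 499, 614 and 769 CPM of Gzmb and 37.9, 91.9 and 100 CPM of Prf1. Il2ra had the opposite order, with 138, 180 and 172 CPM in replicates 1, 2 and 5 and 54.4 to 65.4 CPM in the other 3. In activated mtDNA B6 libraries replicates 3, 4 and 5 (161 to 185 CPM of the markers) held 24.1, 35.4 and 24.6 CPM of Prf1 and replicates 1, 2 and 6 (369 to 405 CPM) held 170, 60.9 and 74.1 CPM. For Gzmb the mtDNA B6 libraries did not line up in this way, since replicate 2, at 393 CPM of the markers, held 488 CPM of Gzmb and replicate 4, at 161 CPM, held 726 CPM. Other markers split the activated mtDNA NZB libraries in the same way. The B cell list summed to 82.0, 73.1 and 263 CPM in replicates 1, 2 and 5 and to 787, 627 and 1006 CPM in replicates 4, 3 and 6, and the platelet marker Pf4 was at 36.0, 40.8 and 13.9 CPM and at 124, 168 and 213 CPM. In activated mtDNA B6 libraries the B cell list was highest in replicates 1 and 2 (660 and 763 CPM) and 422 to 513 CPM in the others. The part of CD8, B cell or platelet RNA in the rise of the granule genes was not tested.

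**Figure D4:**
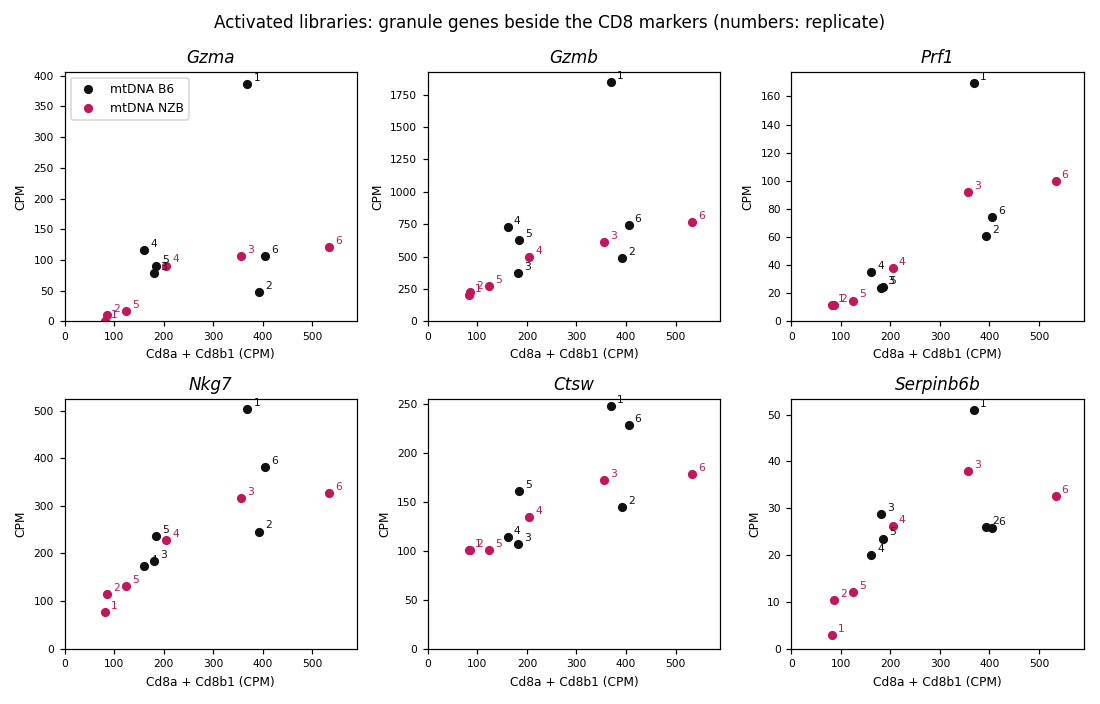
Level of 6 granule genes against the summed level of Cd8a and Cd8b1 in the 12 activated libraries, both in CPM on linear axes; black points are mtDNA B6, dark pink points are mtDNA NZB, and numbers are replicates. Activated mtDNA NZB replicates 1, 2 and 5 sit at the lower left of each panel, and activated mtDNA B6 replicate 1 is the highest point of each panel.

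Of the 11 NK cell markers, 4 could be tested. Klrk1 was called higher in mtDNA B6 cells (1.28 ± 0.37, and 0.97 ± 0.36 without activated mtDNA B6 replicate 6, under the fold threshold, and 0.88 ± 0.47 with a term for the library set, adjusted p = 0.156). Klrb1c, which encodes the NK1.1 receptor, and the signalling adaptors Tyrobp and Fcer1g, which myeloid cells also express, were called lower in both haplotypes. Klrb1c was 6.38 to 13.3 CPM at rest and 0.612 to 3.39 CPM after activation in mtDNA B6, and 5.22 to 33.9 and 0 to 2.28 CPM in mtDNA NZB libraries. The defining markers Klra8 and Klra9 had 0 counts in all 4 groups, Ncr1 was at most 1.12 CPM in any library, and Klre1 at most 0.982 CPM. The summed NK list was 305 to 761 CPM at rest and 37.7 to 99.8 CPM after activation in mtDNA B6, and 209 to 776 and 23.8 to 60.5 CPM in mtDNA NZB libraries. All 4 macrophage and monocyte markers and all 5 granulocyte markers were called lower in both haplotypes over 24 libraries, with Lyz2 at -6.29 ± 0.72 and -5.12 ± 0.70. The 4 macrophage markers summed to 777 to 2502 CPM in resting and 17.1 to 73.7 CPM in activated mtDNA B6 libraries, and to 407 to 2632 and 8.05 to 106 CPM in mtDNA NZB libraries. Over 21 libraries the granulocyte markers S100a8 (-2.34 ± 1.00) and S100a9 (-1.78 ± 1.16) were not called on activation in mtDNA NZB cells. Elane, Mpo, Prtn3 and S100a8 were there called lower in mtDNA NZB than in mtDNA B6 cells at rest (-2.50, -2.09, -2.39 and -2.72). Over 24 libraries these resting values were -0.48, -0.45, -0.57 and 0.19, and none was called. The 21 libraries lack resting mtDNA NZB replicates 2 and 6, whose 5 granulocyte markers summed to 1389 and 7490 CPM. The other resting mtDNA NZB libraries held 196 to 310 CPM and the resting mtDNA B6 libraries 282 to 2536 CPM. The part of the NK, macrophage and granulocyte markers in the fall of Srgn was not tested.

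The platelet marker Pf4 rose by 3.82 ± 0.65 in mtDNA B6 and 3.65 ± 0.74 in mtDNA NZB cells. Ppbp, the second platelet marker, could not be tested and had no counts in the resting mtDNA B6 libraries. Pf4 was highest, at 434 CPM, in activated mtDNA B6 replicate 1, the library with the highest granzyme levels. In that library the 2 platelet markers summed to 435 CPM, so nearly all of the sum was Pf4. The basophil protease Mcpt8, whose gene is in the same cluster as Gzmb, was also highest in that library, at 95.0 CPM, and was called higher in mtDNA B6 cells (2.21 ± 0.57). Its mtDNA NZB value was 0.45 ± 0.63, and over 21 libraries it was called, at 1.63 ± 0.68 (adjusted p = 0.0494). Gamma delta T cell markers summed to at most 6.66 CPM in any library of at least 100000 counts, and none of the 5 could be tested. B cell markers were not called in either haplotype over 24 libraries, and over 21 libraries Ms4a1 was called higher in mtDNA B6 cells (1.17 ± 0.48, adjusted p = 0.0443). Whether platelet or basophil RNA has a part in the granzyme levels of replicate 1 was not tested.

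**Figure D5:**
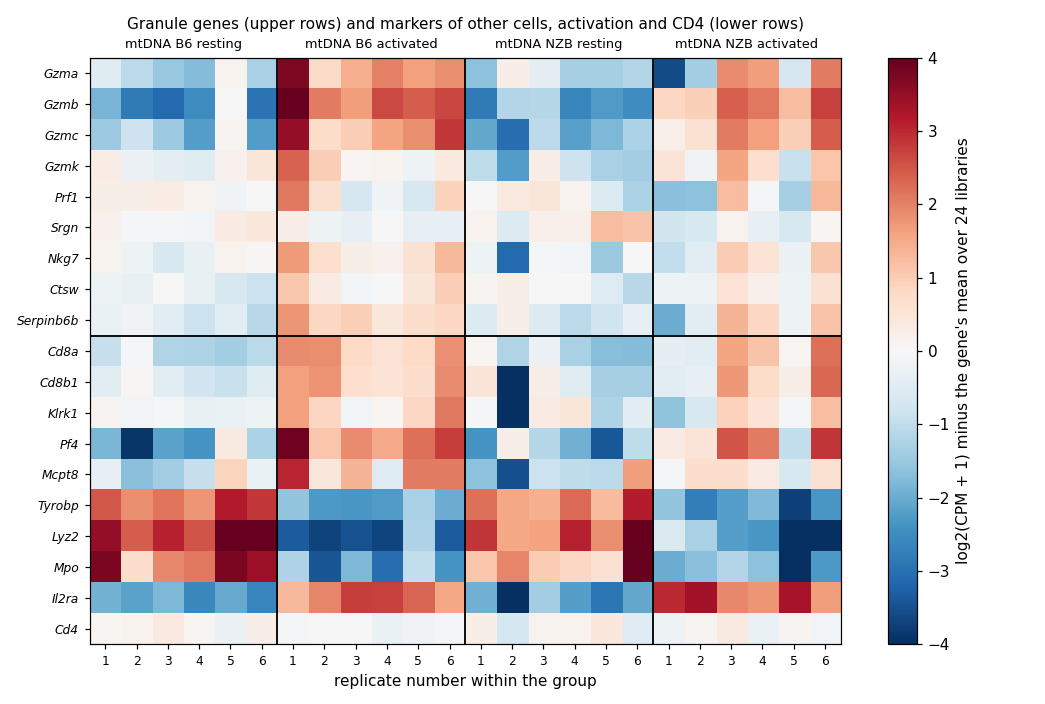
Each cell gives log2(CPM + 1) minus the mean of that gene over 24 libraries, for 9 granule genes (upper rows) and 10 markers (lower rows), with libraries in columns by group and replicate; colours end at 4 in either direction. Activated mtDNA B6 replicate 1 is red from Gzma to Prf1 and again for Cd8a, Cd8b1, Klrk1, Pf4 and Mcpt8, whereas Tyrobp, Lyz2 and Mpo are red in the resting groups.

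Genes that work with the members were taken from 5 further lists. Of 18 genes of granule maturation and release, 16 were tested, and the median log2 difference was 0.13 in mtDNA B6 and 0.01 in mtDNA NZB cells. In mtDNA B6 cells 2 were called higher and 1 lower (7.06% and 10.6% of all genes), and in mtDNA NZB cells 1 higher and 2 lower (9.46% and 14.0% of all genes). Sytl1, a synaptotagmin-like protein that binds Rab27, rose by 1.15 ± 0.20 and 1.42 ± 0.22. Sytl3, of the same family, rose by 1.15 ± 0.25 in mtDNA B6 cells, and its mtDNA NZB value was -0.00 ± 0.27. With a term for the library set Sytl3 in mtDNA B6 cells was at 0.97 ± 0.32, under the fold threshold. The lysosomal protease Ctsl fell by 2.08 ± 0.35 and by 2.73 ± 0.37, and the granule membrane protein Cd63 fell by 2.20 ± 0.69 in mtDNA NZB cells, a call that was lost without resting mtDNA NZB replicate 6 (-0.62 ± 0.57, adjusted p = 0.377), over 21 libraries (-0.84 ± 0.65) and with the set term (-1.54 ± 0.71, adjusted p = 0.0732). Cd63 in mtDNA B6 cells was at -1.21 ± 0.60 (adjusted p = 0.1). It was called over 21 libraries (adjusted p = 0.0275), with the description number as a replicate block (0.0318), without activated mtDNA B6 replicate 1 (0.0293) and without resting mtDNA NZB replicate 6 (0.0239). Without that last library it was also called lower in mtDNA NZB than in mtDNA B6 cells at rest (-1.78 ± 0.53, adjusted p = 0.0482).

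Of 13 serpin relatives 3 were tested and 2 were called higher in each haplotype, where 7.06% of all genes were called higher in mtDNA B6 and 9.46% in mtDNA NZB cells. Serpina3f rose by 2.32 ± 0.31 and 1.72 ± 0.33 and Serpina3g, a cathepsin inhibitor induced in activated T cells, by 1.95 ± 0.27 and 1.77 ± 0.29. The median of the 3 was 1.95 in mtDNA B6 and 1.72 in mtDNA NZB cells. Of the 6 other granzymes only Gzmm could be tested, and it was not called (-0.83 in mtDNA B6 and 0.29 in mtDNA NZB cells).

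All 6 death ligands and effector cytokines were tested, with medians of -0.08 and -0.14. In mtDNA B6 cells 0 were called higher and 1 lower, which was Tnf, an inflammatory cytokine (-1.08 ± 0.26, and -0.91 ± 0.26 without resting mtDNA B6 replicate 6, short of the fold threshold, as it also was without activated mtDNA B6 replicate 6, with library totals alone at -0.96 and with the set term at -0.85), where 10.6% of all genes were called lower. In mtDNA NZB cells Lta, encoding lymphotoxin, rose by 2.46 ± 0.55 and Fasl, the ligand of the Fas death receptor, fell by 1.75 ± 0.29, where 9.46% of all genes were called higher and 14.0% lower. With the description number as a replicate block Lta in mtDNA NZB cells was at 1.11 ± 0.53 and was not called (adjusted p = 0.118). At rest Fasl was 5.74 to 10.3 CPM in mtDNA B6 (median 7.10) and 0 to 19.7 CPM in mtDNA NZB libraries (median 15.3), which overlapped. Its resting haplotype difference of 1.04 ± 0.27 was called (adjusted p = 0.0389), and was not called without resting replicate 1, 3, 4 or 5 of mtDNA B6 or 4 or 5 of mtDNA NZB, with an adjusted p of up to 0.176. That call of Fasl was also lost with library totals alone (adjusted p = 0.061), with no filter on low counts (0.0618), with the second count table (0.104) and with the set term (0.81 ± 0.26, adjusted p = 0.152). With the replicate number of the titles as a block it was lost too (1.05 ± 0.29, adjusted p = 0.0758). Lta in mtDNA B6 cells was at 1.07 ± 0.51 (adjusted p = 0.0849), and over 21 libraries it was called (1.08 ± 0.45, adjusted p = 0.0481), as it was with no filter on low counts (1.10 ± 0.41, adjusted p = 0.0487). Over 21 libraries Ifng, encoding interferon gamma, was called lower in mtDNA NZB cells (-1.12 ± 0.43), where it was -0.85 ± 0.38 over 24. The difference of responses was not called for these 6 genes over 24 libraries, with -1.52 ± 0.39 (adjusted p = 0.207) for Fasl, and over 21 libraries it was called for Fasl (-1.82 ± 0.40, adjusted p = 0.0439).

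Of 14 transcription factors of the cytotoxic programme 13 were tested, and the medians were 0.50 in mtDNA B6 and 0.02 in mtDNA NZB cells. In mtDNA B6 cells 3 were called higher and 1 lower (7.06% and 10.6% of all genes), and in mtDNA NZB cells 1 higher and 2 lower (9.46% and 14.0% of all genes). Tbx21, encoding T-bet, rose by 1.68 ± 0.19 and 1.59 ± 0.21. In mtDNA B6 cells Eomes, the related T-box factor, rose by 1.05 ± 0.18 (0.96 ± 0.18 without resting and 0.99 ± 0.18 without activated replicate 5, 0.99 with the stricter filter and 0.94 with the set term, each short of the fold threshold) and Stat4, which acts downstream of interleukin-12, by 1.22 ± 0.30, and their mtDNA NZB values were 0.28 ± 0.19 and 0.72 ± 0.33. With the description number as a replicate block Stat4 was called in mtDNA NZB cells (1.10 ± 0.33, adjusted p = 0.0186). Zeb2 fell by 1.89 ± 0.34 and by 2.45 ± 0.37, and Stat5a fell by 1.27 ± 0.29 in mtDNA NZB cells. Stat5a was not called there without resting mtDNA NZB replicate 5 (-0.83 ± 0.24) or with the set term (-0.98 ± 0.30). Nor was it with the description number as a replicate block (-0.65 ± 0.29, adjusted p = 0.0942). At rest Stat5a was 81.8 to 102 CPM in mtDNA B6 and 87.0 to 439 CPM in mtDNA NZB libraries, which overlapped, with medians of 91.1 and 112. That difference was called (1.14 ± 0.29, adjusted p = 0.0378), and was not called without resting replicate 1, 3, 4, 5 or 6 of mtDNA B6 or 5 or 6 of mtDNA NZB, with 0.70 ± 0.23 (adjusted p = 0.228) without mtDNA NZB replicate 5, nor over 21 libraries (0.97 ± 0.30, adjusted p = 0.0519), with the second count table (adjusted p = 0.0632) or with the set term (0.95 ± 0.30, adjusted p = 0.144). With the replicate number of the titles as a block it was not called either (0.97 ± 0.28, adjusted p = 0.0836). Over 24 libraries none of the tested genes of the 5 lists was called for the difference of the responses.

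Genes whose levels ran most like a member within one state are given as a description, by Pearson's r of log2 CPM. Over the 12 activated libraries, among 7278 genes, Gzma ran closest to Adam8 (r = 0.97), with Serpinb6b next (0.96), and Gzmb ran closest to Sytl3 (0.95). Gzmc ran closest to Ifitm1 (0.95), Prf1 to Cd7 (0.97), Srgn to the metallothionein gene Mt2 (0.98), Nkg7 to Grina (0.97) with Klrk1 second (0.96), and Ctsw to Tnfrsf9 (0.94). Over 11 resting libraries, among 7565 genes, Gzma and Gzmb ran with each other (r = 0.89, first for Gzma and second for Gzmb after Sdhb), and Srgn ran closest to Mapk14 (0.99). The values of 2 genes share library, depth and cell makeup, and each r is the highest or second highest of 7278 or 7565.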

How the data were processed

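RNA of 24 Tconv CD4+ libraries was sequenced by bulk MARS-seq, a method that reads the 3′ ends of transcripts. The authors trimmed reads with cutadapt, discarded reads under 30 bases, mapped the rest with STAR to the last 1000 bases of GRCm39 genes, counted with HTSeq, and deposited whole-number UMI counts corrected for saturation, next to a second table of larger counts without that correction. Among its columns, 1 had no matching sample label and stayed out. The members and all gene lists were chosen with earlier results of these data known.

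Counts were tested with edgeR 4.0.16 (R 4.3.3): TMM scaling, filterByExpr by group, 1 quasi-likelihood fit of the 4 groups over 24 libraries, and Benjamini-Hochberg adjustment over 10566 genes. A ± value on the log2 scale is a standard error. The study's methods name DESeq2, run here (1.42.0) as an alternative. CPM use TMM-scaled totals. Scripts were tested on simulated counts. Low totals, above all 51409 counts in resting mtDNA NZB replicate 2, limit precision: there 1 count is 16.9 CPM. The alternatives were other scalings and filters, the second table, 21 libraries, replicate blocks, a library-set term and leaving out each library.

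All 10 members are named. From the wider lists a gene is named where it was called in at least 1 activation comparison, with at most the 4 largest mean differences per list and direction. For likeness, the genes with the highest r were taken among genes of at least 10 CPM, over libraries of at least 100000 counts (log2 CPM, prior count 2). Positions are those of GRCm39; gene models came from GENCODE.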

Additional observations from a re-analysis of the deposited data

Results flagged for a closer look

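In 8 of 40 member and group combinations 1 library stood apart from the other 5 by Dixon's test (gap over range above 0.625). Chance gives about 1 in 20 for independent values, and members measured in the same libraries are not independent. Of the 8, 5 were activated mtDNA B6 replicate 1, which held 387 CPM of Gzma (next library 116), 1844 CPM of Gzmb (next 745), 23.4 CPM of Gzmk (next 8.26), 170 CPM of Prf1 (next 74.1) and 50.9 CPM of Serpinb6b (next 28.7). Resting mtDNA B6 replicate 5 held 117 CPM of Gzmb, with the next library at 30.9. Resting mtDNA NZB replicate 3 held 4.70 CPM of Gzmk (14 counts), with the next library at 1.68, and the only Serpinb9 count of its group (0.336 CPM). The only count of a group is always flagged by this test.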

How the results depend on the processing

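Across 11 alternatives and 24 fits that each left out 1 library, Gzma, Gzmb, Gzmc and Serpinb6b were called higher on activation in both haplotypes, and no member was called in a comparison of haplotypes or of responses. The number of members called on activation in mtDNA B6 cells was 4, and 7 with library totals alone (Gzmk, Nkg7 and Ctsw added), a scaling that moved the median of all genes from -0.03 to 0.10. That scaling also moved the share of calls that were higher from 39.9% to 47.8% in mtDNA B6 and from 40.4% to 49.4% in mtDNA NZB cells. With it 893 of all genes were called higher in mtDNA B6 cells, where the main fit called 746. The number in mtDNA B6 cells was 6 with no filter on low counts (Nkg7 and Serpinb9 added), 6 with no fold cut-off (Nkg7 and Ctsw) and 5 with the second count table (Nkg7). In mtDNA NZB cells it was 5, with 6 under no filter (Serpinb9) or no fold cut-off (Srgn, lower). It was 4 there under the stricter filter, which Gzmk did not pass, and over 21 libraries, where Gzmk was tested and not called. The shares of 7.06% and 9.46% given above belong to the main rule. By edgeR 53.4% of all genes had an unadjusted p under 0.05 in mtDNA B6 and 58.6% in mtDNA NZB cells. A count without a fold cut-off thus has a large background. Leaving out 1 library gave 4 to 6 members in mtDNA B6 and 5 to 5 in mtDNA NZB cells, and 0 to 0 in the other 3 comparisons. The description number as a replicate block gave 5 members in mtDNA B6 (Ctsw added, at 1.01) and 5 in mtDNA NZB cells, the title number 4 and 5. With the description number Lta (1.11, adjusted p = 0.118) and Stat5a (-0.65, adjusted p = 0.0942) were not called in mtDNA NZB cells, while Stat4 was there (1.10) and Cd63 in mtDNA B6 cells (-1.16), and with the title number Fasl and Stat5a were not called between the haplotypes at rest (adjusted p = 0.0758 and 0.0836). The deviations of same-numbered libraries had r over 0.1 in 3 of 9 pairs by description and 4 of 12 by title. All of these pairs were mtDNA B6, with r up to 0.25, and none was mtDNA NZB. The methods describe isolated T cells as split into a resting and an activated part. Nothing states that a number marks a mouse, so the numbers are taken as names. A description number occurs in 1 haplotype only, so it gives no haplotype difference.

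Signs changed only for values that were not called, and the cause was not tested. Prf1 became -0.21 on activation in mtDNA B6 cells with a library-set term and -0.21 in mtDNA NZB cells over 21 libraries. Its response difference became 0.16 with the description number as a replicate block and 0.49 with the set term. With the set term the response difference of Gzmb became 0.11 and the activated haplotype difference of Gzmk 0.01, and by DESeq2 the response difference of Gzmc became -0.00. Leaving out 1 library gave -0.04 to 0.59 for Prf1 on activation in mtDNA NZB cells, -0.87 to 0.12 for its activated haplotype difference and -0.64 to 0.35 for its response difference. It gave -1.36 to 0.03 for the response difference of Gzmb, -0.53 to 0.70 for that of Gzmc, -0.59 to 0.45 for the activated difference of Gzmk, and -0.58 to 0.05 and -0.89 to 0.48 for the resting differences of Gzma and Gzmb. Depth limits Serpinb9, Gzmk and the resting levels of Gzmc.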
